A study of Homo sapiens with 20 samples.

Results

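The m6A peaks of 10 genes that supply cystine, build glutathione or set the threshold of ferroptosis were examined in bladder cancer cells. The genes were SLC7A11, SLC3A2, GCLC, GCLM, GSS, GSR, GPX4, ACSL4, AIFM2 and TFRC. The list was chosen by function, with earlier results of these data known. Their peaks were all peaks whose summit, the highest point of the peak, fell in an exon of the gene. Of the 10 genes, 6 had such a peak in at least 1 library. They held 66 of 173873 exonic peaks in the series and lay in 11 of the 43676 regions obtained when the peak lists were merged. The other 4 genes, GCLM, GSS, GSR and GPX4, had no exonic and no intronic summit in any of the 10 lists.

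The series compared T24, a cisplatin-sensitive human bladder cancer cell line, with T24R2, a cisplatin-resistant line obtained from T24 by serial exposure to the drug. Both lines were labelled as wild type and harvested on day 3. The labels give the same growth medium for both, while the study's methods state that T24R2 was kept in medium with cisplatin, so resistance and drug exposure cannot be told apart. Each line had 5 libraries enriched with an anti-m6A (N6-methyladenosine) antibody, called IP libraries, and 5 input libraries made without antibody; the inputs enter here as the background of the peak calling only. Nothing in the labels says that replicates were separate cultures, so p-values measure the spread between these libraries, which may be technical, and a single resistant line does not represent resistant tumours in general.

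Cells import cystine through system xc-, made of the transporter SLC7A11 and its chaperone SLC3A2, and reduce it to cysteine for glutathione. GPX4 spends glutathione to remove lipid peroxides, while AIFM2 (FSP1) does so through ubiquinol. ACSL4 loads membranes with oxidizable fatty acids and TFRC brings in iron, and ferroptosis is the death that follows when peroxides accumulate. m6A is deposited mostly in the DRACH context, a pentamer (D: any base but C; R: a purine; H: any base but G) with the methylated A at its centre, and is known to gather near stop codons.

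The sequences below are the DRACH sites nearest to the median summit of the main regions, shown because m6A is read in this context. For TFRC the GGAC form is shown. All were read from the GENCODE 44 transcripts and are mRNA-sense DNA letters, 5′ to 3′, with the DRACH pentamer in capitals.
SLC7A11 stop codon region: atgaactaatGGACTtgagatcttg
SLC7A11 5′ region: tttcacctgtGAACActatagcgct
SLC3A2 stop codon region: agcctgacatGGACCcactaccctt
GCLC stop codon region: cattattgacGAACTggctacagta
GCLC 5′ region: ccagtgcaccAGACCggcaaagaga
AIFM2 stop codon region: gcaagtgctaGAACTaatgctattc
TFRC stop codon region: gtgacgtttgGGACAttgacaatga

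In hg38 these sites lie at chr4:138171935-138171959 (minus strand) and chr4:138242185-138242209 (minus) for SLC7A11, and at chr11:62888698-62888722 (plus) for SLC3A2. Those of GCLC lie at chr6:53498709-53498733 (minus) and chr6:53545000-53545024 (minus). The AIFM2 site is at chr10:70114082-70114106 (minus) and the TFRC site at chr3:196051949-196051973 (minus). The central adenosine of the SLC7A11 GGACT site sits 9 nt past the last base of the stop codon, in the 3′UTR, and 6 of the 8 peaks of that region had their summit within 50 nt of it. In the SLC7A11 5′ region all 3 summits lay within 50 nt of the GAACA site, in the 5′UTR. At the SLC3A2 site this held for 4 of 10 peaks and at the TFRC site for 5 of 8, so most SLC3A2 summits lay farther from the site shown; at the AIFM2 site it held for 8 of 9, and for GCLC for 6 of 7 at the stop codon and 9 of 9 in the 5′ region. The SLC3A2 site lies 17 nt, the GCLC stop codon site 35 nt and the AIFM2 site 84 nt into the 3′UTR, whereas the TFRC site lies in the coding sequence (CDS), 19 nt before the end of the stop codon. A matching pentamer marks a possible site only, since the peaks do not resolve single bases.

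The 6 genes with peaks shared one position. Each of them had a peak with its summit within 200 nt of the end of the stop codon. For ACSL4 this rests on 1 peak, in T24R2 replicate 5, the library with the longest list. Of 65 member peaks that could be placed on the reference (MANE Select) transcript, 43 (66.2%) lay in that window, against 23.6% of 138118 peaks placed in the same way across all genes. By gene, the share was 6 of 6 against 63.1% of all 9096 genes with a placed peak. The 3′UTR held 31 member peaks (47.7%), the CDS 19 (29.2%) and the 5′UTR 15 (23.1%). Across all genes these shares were 31.4%, 61.4% and 7.17%. These shares are descriptions, because the peaks of a gene recur across libraries and are not independent.

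**Figure D1:**
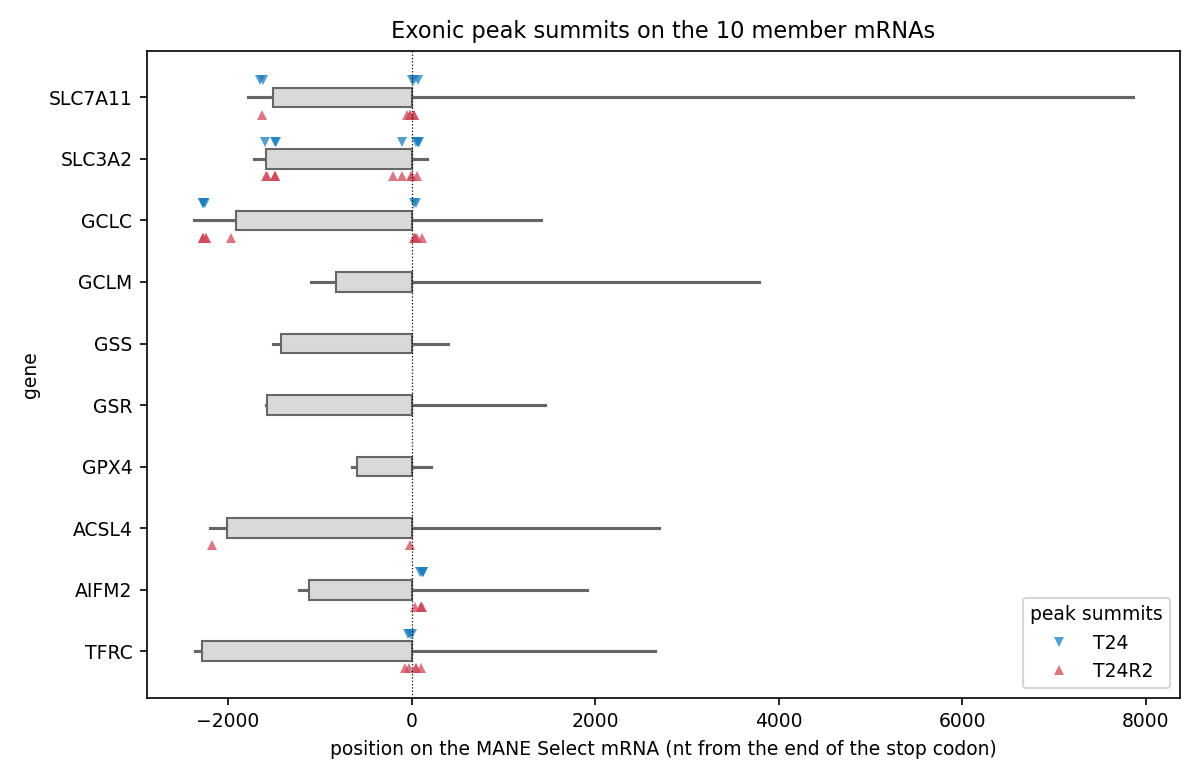
Summits of exonic peaks on the 10 mRNAs, with nucleotides from the end of the stop codon on the x axis; the box is the CDS, the thin lines are the UTRs, and triangles are summits of single libraries (downward, T24; upward, T24R2). Summits of SLC7A11, SLC3A2, GCLC, AIFM2 and TFRC gather at the stop codon and those of SLC7A11, SLC3A2 and GCLC also near the 5′ end; ACSL4 has 1 drawn summit at each place, and GCLM, GSS, GSR and GPX4 have none. One ACSL4 summit in an exon of another transcript is not drawn.

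The number of DRACH pentamers near the stop codon overlapped between genes with and without peaks. Within 200 nt of the stop codon, GCLM held 8 DRACH pentamers, GSS 7, GSR 11 and GPX4 6, beside 12 in SLC7A11, SLC3A2 and TFRC, 11 in GCLC and ACSL4 and 8 in AIFM2. The median over 19061 reference transcripts was 8. The shorter motif GGAC was present 3 times in GSS, GPX4 and SLC7A11, 2 times in GSR, SLC3A2, TFRC and AIFM2 and once in ACSL4, and was absent from GCLC and GCLM, while 77.0% of all transcripts held it in this window. Within 50 nt of the summit, 89.2% of member peaks had a DRACH pentamer on the sense strand and 64.6% on the antisense strand of the same window, against 90.2% and 70.2% of all placed peaks. GGAC was found near 32.3% of member summits (antisense 24.6%) and near 49.3% of all (antisense 24.9%). Counts of a pentamer and those of its core overlap, since GGAC followed by any base but G is itself a DRACH pentamer.

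No member passed the test of the number of libraries with a peak. SLC3A2 and GCLC had an exonic peak in 5 of 5 libraries of both lines. SLC7A11 and AIFM2 had one in 4 of 5 T24 and 5 of 5 T24R2 libraries, TFRC in 3 and 5 (two-sided Fisher's exact p = 0.444), and ACSL4 in 0 and 3 (Fisher's exact p = 0.167). So 4 members had a peak in more T24R2 libraries and 0 in more T24 libraries, and 0 passed an unadjusted p of 0.05. Of all protein-coding genes with a reference transcript and a peak, 31.1% had one in more T24R2 libraries and 10.6% in more T24 libraries. Without T24R2 replicate 2 or without T24R2 replicate 4, 1 member passed, ACSL4. With all 10 libraries, 6.46% of all 13933 genes with an exonic peak passed that threshold with more T24R2 libraries and 2.49% with more T24 libraries. No gene of the series passed after adjustment (smallest Benjamini-Hochberg adjusted p of Fisher's exact test, 0.190). With 5 against 5 libraries the smallest Fisher's exact p is 0.00794, which leaves little room to pass, so this does not show that the lines are alike.

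The lists of T24R2 were longer, which touches every count of libraries. They held 22671 to 33120 peaks, against 17203 to 22901 in T24, and sequencing depth is not known, as no counts of reads come with the lists. The list of T24R2 replicate 5 was the longest by a wide margin. Member peaks numbered 5, 4, 5, 7 and 5 in T24 replicates 1 to 5 and 8, 7, 8, 7 and 10 in T24R2 replicates 1 to 5. Per 1000 peaks of the list, T24 had 0.253 ± 0.030 and T24R2 0.311 ± 0.026 (SD, n = 5 each). The part of list length in these differences was not tested. With every list held to its strongest 17203 peaks, 5 member regions had a peak in more T24R2 libraries and 4 in more T24 libraries, where the full lists gave 9 and 1. Without T24R2 replicate 5, 7 member regions had a peak in more T24R2 libraries and 1 in more T24 libraries. Across all regions of the full lists the shares were 52.5% and 19.6%. Such shares are not at hand for equal list lengths or without T24R2 replicate 5. The changes in these counts therefore cannot be read as particular to the members.

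**Figure D2:**
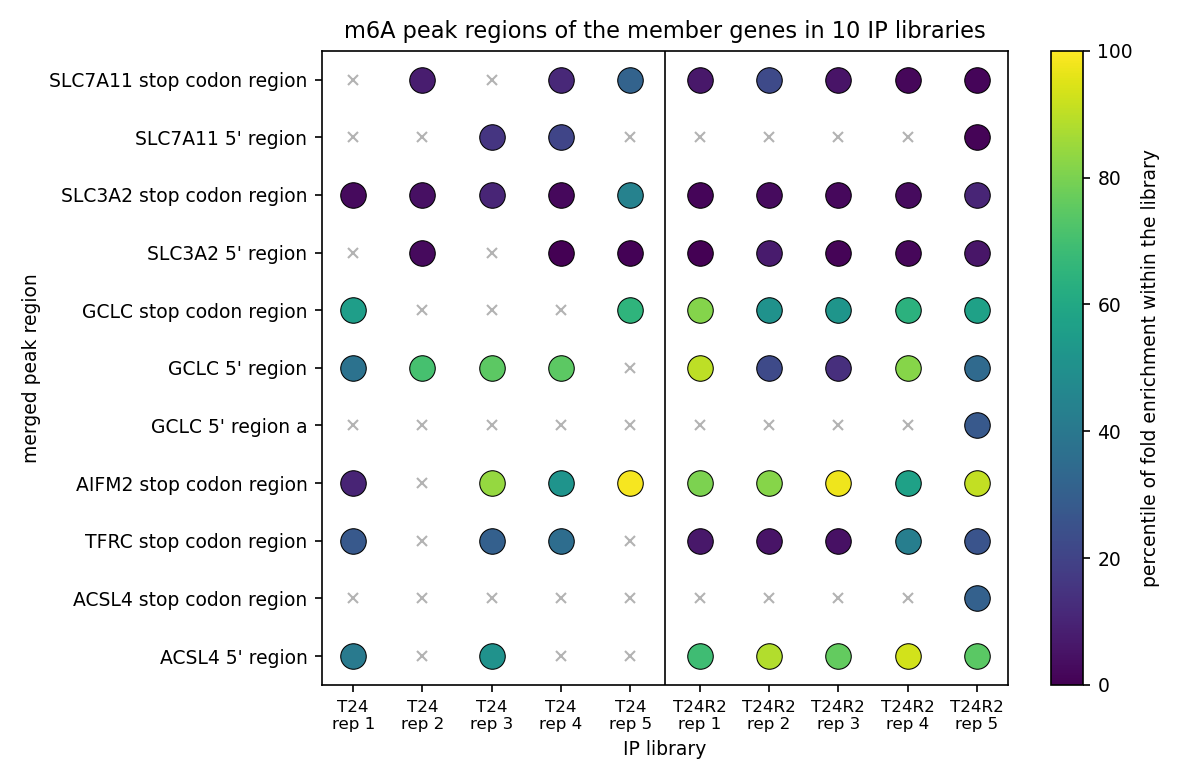
The 11 merged peak regions of the member genes (rows) in the 10 IP libraries (columns). Colour gives the percentile of the peak's fold enrichment among all peaks of that library, and a cross marks a library without a peak. SLC3A2 and SLC7A11 regions are mostly dark, with median percentiles of 2.58 and 8.07 and highest values of 43.9 and 31.4. GCLC and AIFM2 regions are mostly brighter, with medians of 57.35 and 81.7, but reach down to 13.7 and 10.0. The ACSL4 5′ region is also bright in T24R2 (mean 80.2), and 2 regions were called in T24R2 replicate 5 alone.

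SLC7A11, which carries cystine into the cell in exchange for glutamate, had its peaks at 2 places. One region spans the stop codon (chr4:138171862-138172112, exon 12 of 12) and the other lies in the 5′UTR in exon 1 (chr4:138242170-138242269). The mRNA is 9645 nt long with a 3′UTR of 7859 nt, and no library had a summit in that 3′UTR beyond 70 nt past the stop codon. The stop codon region was called in T24 replicates 2, 4 and 5 and in all 5 T24R2 libraries. The 5′ region was called in T24 replicates 3 and 4 and in T24R2 replicate 5. T24 replicate 1 had no SLC7A11 peak.

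At the stop codon of SLC7A11, the authors' fold enrichment, how far the IP signal exceeded the local input, was 3.66, 3.99 and 5.38 in T24 replicates 2, 4 and 5. In T24R2 replicates 1 to 5 it was 3.41, 5.45, 3.21, 2.73 and 2.63. The lines overlapped, and the highest value was in T24R2 replicate 2. Expressed as the percentile of fold enrichment within each list, with 0 for a list without the peak, the mean in T24 was 10.1 ± 12.9 and that in T24R2 was 7.48 ± 8.65 (SD, n = 5 each). The difference of −2.62 percentile points was smaller than the spread between replicates (two-sided exact permutation p = 0.667), and it changed sign, to 2.71, without T24 replicate 5. Of the 8 peaks, all but those of T24 replicate 5 and T24R2 replicate 2 ranked between the 1.36 and 10.99 percentile of fold.

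The −log10 q of the same peaks gave another order. The value was 2.57, 5.83 and 4.09 in T24 replicates 2, 4 and 5 and 11.5, 25.6, 7.24, 8.84 and 4.398 in T24R2 replicates 1 to 5, so 4 of 5 T24R2 libraries were above every T24 library. The q-value depends on the number of reads at a site as well as on the fold. As percentiles of −log10 q within each list, the means were 8.46 ± 10.4 (SD, n = 5) and 40.5 ± 20.5 (SD, n = 5), a difference of 32.03 (exact permutation p = 0.0238, adjusted p over all regions 0.213). The difference was 27.0 when every list was held to 17203 peaks (exact permutation p = 0.167), and without T24R2 replicate 5 it was 38.6 (exact permutation p = 0.00794). Transcript levels, which would bear on the number of reads, were not analysed here.

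**Figure D3:**
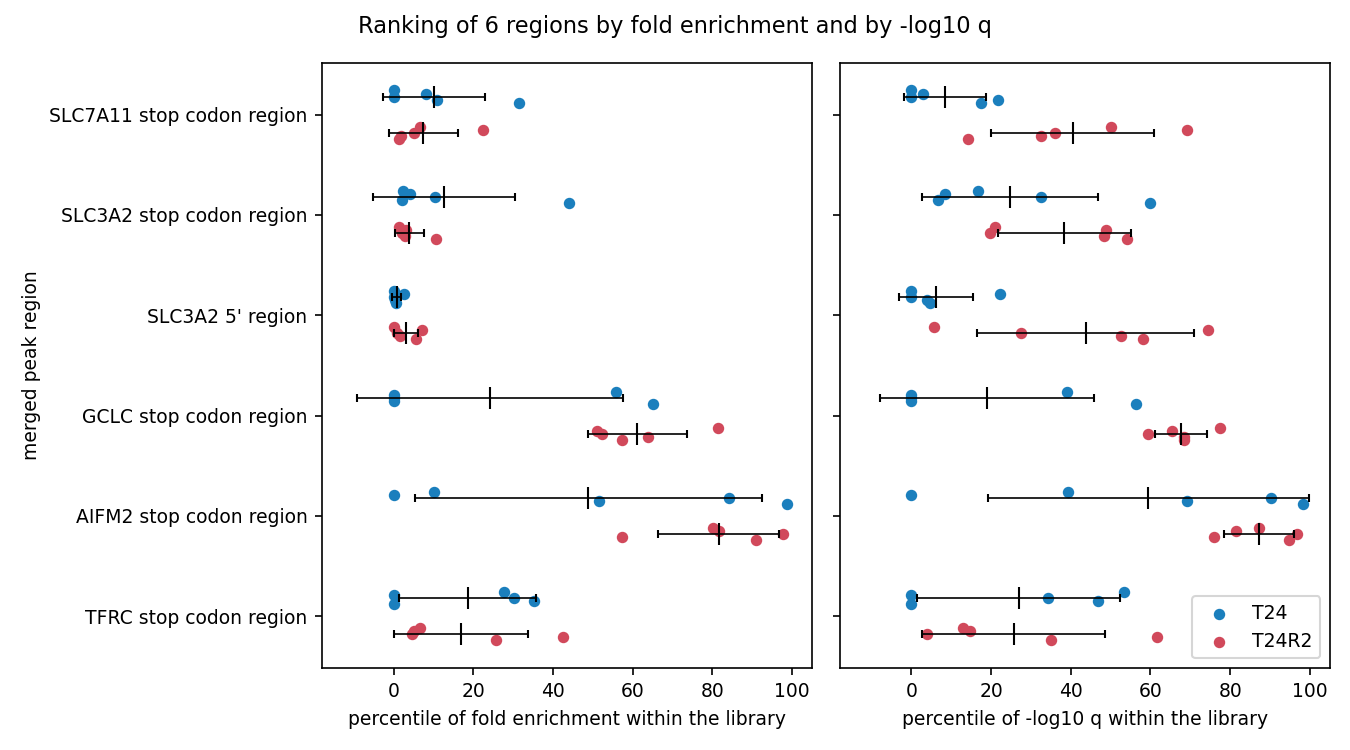
Percentile within the library of fold enrichment (left) and of −log10 q (right) for 6 regions; points are libraries (0 where no peak was called), vertical ticks are means and bars 1 SD over 5 libraries of a line. The SLC7A11 stop codon region has mean fold percentiles of 10.1 in T24 and 7.48 in T24R2 but mean −log10 q percentiles of 8.46 and 40.5.

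In the 5′UTR of SLC7A11 the fold enrichment was 4.65 in T24 replicate 3, 4.73 in T24 replicate 4 and 2.51 in T24R2 replicate 5. The summits lay at −117, −142 and −121 nt from the start codon. The 2 T24 peaks ranked at the 15.3 and 20.6 percentile of fold and the T24R2 peak at 0.984. Over all libraries T24 had a mean percentile of 7.18 ± 10.0 and T24R2 of 0.197 ± 0.440 (SD, n = 5 each), and the difference was −6.98 (exact permutation p = 0.444). It was the one member region with a peak in more T24 than T24R2 libraries. The peak was called in 2 T24 libraries and 1 T24R2 library. So few peaks cannot pass the unadjusted threshold in the exact permutation test, whichever line holds them. The p-value therefore cannot tell whether the lines differ at this region.

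The SLC7A11 summits at the stop codon lay at 9, 28 and 70 nt past it in T24, and at −48, −16, −11, 22 and 30 nt in T24R2, where negative values are in the CDS. All 3 T24 summits were in the 3′UTR, and 3 of the 5 T24R2 summits were in the CDS. SLC3A2 showed a similar spread, with a median of 71 nt in T24 and −9 nt in T24R2, while the medians for GCLC were 36 and 38 nt. For TFRC the order was the opposite, with −19 nt in T24 and 49 nt in T24R2. The ranges of the lines overlapped in each of these genes, and the difference was not tested.

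**Figure D4:**
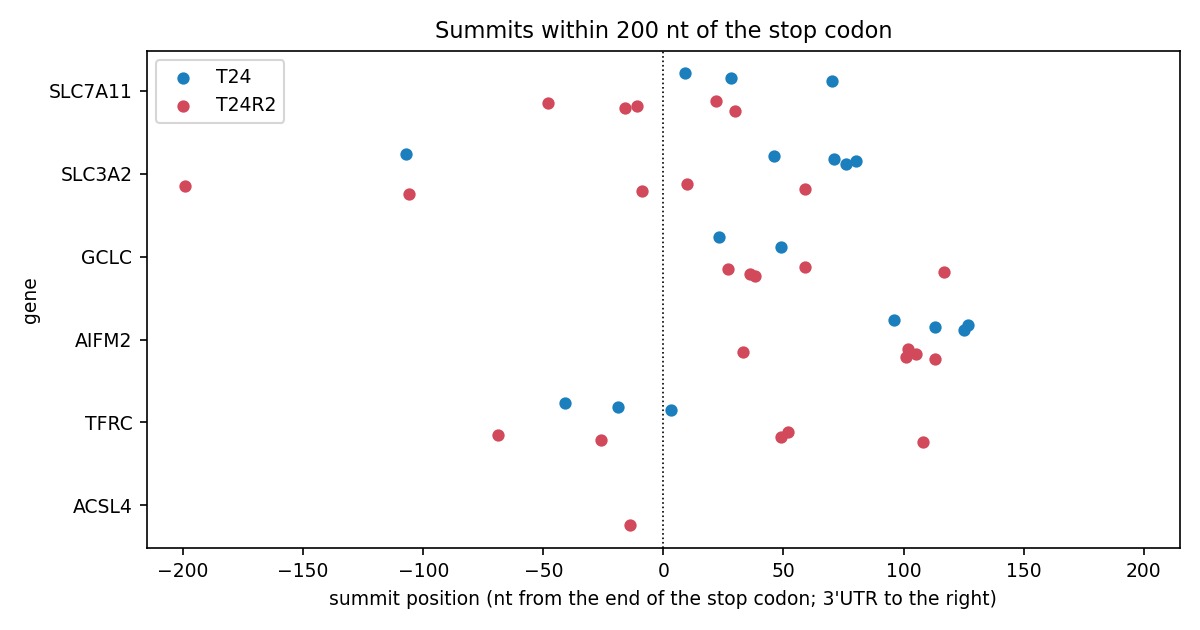
Summits within 200 nt of the stop codon, one point per library (T24 above, T24R2 below each gene line), with the distance in nt from the end of the stop codon on the x axis. SLC7A11 summits run from −48 to 70 nt and AIFM2 summits from 33 to 127 nt; ACSL4 has a single summit, at −14 nt.

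SLC3A2, the heavy chain that holds SLC7A11 at the membrane, was called in all 10 libraries but with low enrichment. Its stop codon region (chr11:62888346-62888808, exon 9) had a fold enrichment of 2.76, 3.03, 4.13, 2.78 and 6.23 in T24 replicates 1 to 5 and of 2.41, 3.25, 2.69, 3.00 and 3.87 in T24R2 replicates 1 to 5. T24 replicate 5 was well above the rest. The log2 fold enrichment, centred on the median of each library, differed by −0.35 ± 0.27 (SE) between T24R2 and T24, which the test did not separate from 0 (limma adjusted p = 0.605). This was the only member region called in every list, as the limma fit required. With regions called in at least 4 lists of each line, the log2 difference was 0.35 ± 0.37 (SE) for the AIFM2 stop codon region (limma adjusted p = 0.733) and −0.34 ± 0.33 (SE) for the GCLC 5′ region (limma adjusted p = 0.698). In the fit of the 9577 regions called in every list, 0.48% were higher in T24R2 and 0.313% higher in T24 at an adjusted p of 0.05.

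SLC3A2 also had a region at the start of the CDS (chr11:62880894-62881149, exon 1), called in T24 replicates 2, 4 and 5 and in all T24R2 libraries. Its fold enrichment, 1.80 to 3.94, was the lowest of the set, and no DRACH pentamer lay within 50 nt of the median summit. T24 had a mean percentile of fold of 0.723 ± 1.14 and T24R2 of 3.08 ± 3.11 (SD, n = 5 each), with an exact permutation p of 0.190. By −log10 q the means were 6.14 ± 9.24 and 43.7 ± 27.1 (SD, n = 5 each; exact permutation p = 0.0159, adjusted p 0.162), with 4 of 5 T24R2 libraries above every T24 library. With lists of equal length that difference was 32.6 (exact permutation p = 0.167).

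Of GCLC, GCLM, GSS and GSR, the enzymes of glutathione synthesis and recycling in the set, GCLC alone had peaks. GCLC is the catalytic subunit of glutamate-cysteine ligase, the first and rate-limiting step of glutathione synthesis, and GCLM is its modifier subunit. GSS completes the synthesis, and GSR regenerates reduced glutathione. Across 19061 protein-coding genes with a reference transcript, 51.5% had an exonic peak in at least 1 library, so lacking one, as GCLM, GSS, GSR and GPX4 did, was common. An absent peak can also reflect too few reads, and expression was not analysed here.

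GCLC carried a peak at each end of its mRNA. The stop codon region (chr6:53498531-53498973, exon 16) was called in T24 replicates 1 and 5, with fold enrichments of 7.92 and 7.91, and in all T24R2 libraries, with 10.4, 7.65, 6.48, 8.45 and 7.33. Where called, the folds of the lines overlapped. With 0 for missing peaks, the mean percentile of fold rank was 24.2 ± 33.3 for T24 and 61.1 ± 12.4 for T24R2 (SD, n = 5 each), which differ by 36.9 (exact permutation p = 0.0952). It passed an unadjusted threshold without T24 replicate 1 (difference 44.8, exact permutation p = 0.0476) and without T24 replicate 5 (47.2, exact permutation p = 0.0238). By −log10 q every T24R2 library ranked above every T24 library, with means of 19.1 ± 26.8 and 67.8 ± 6.54 (SD, n = 5 each; exact permutation p = 0.00794, adjusted p 0.0998). The same p was obtained with the same number of peaks per list.

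The 5′UTR region of GCLC (chr6:53544726-53545113, exon 1) was called in T24 replicates 1 to 4, with fold enrichments of 6.39, 8.64, 10.4 and 9.83, and in all T24R2 libraries, with 12.7, 5.49, 4.02, 11.4 and 5.50. T24R2 values fell on both sides of the T24 values. The mean percentiles of fold, 51.5 ± 32.7 and 48.4 ± 35.0, differed by less than their spread (SD, n = 5 each; exact permutation p = 0.913). In T24 only replicate 1 had peaks at both ends of GCLC, while all 5 T24R2 libraries did. A further 5′UTR region (chr6:53544532-53544722) was called in T24R2 replicate 5 alone.

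AIFM2, which reduces coenzyme Q at the plasma membrane, had the highest enrichment of the set. Its single region lies in the 3′UTR in the last exon (chr10:70113970-70114263, exon 9). The fold enrichment was 4.06, 12.3, 7.05 and 18.3 in T24 replicates 1, 3, 4 and 5, and 10.2, 12.3, 16.8, 7.70 and 13.8 in T24R2 replicates 1 to 5. The highest and the lowest values were both in T24. T24 averaged the 48.9 ± 43.7 percentile of fold and T24R2 the 81.6 ± 15.2 (SD, n = 5 each), with overlap between the lines (exact permutation p = 0.190).

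TFRC, the transferrin receptor, had 1 region across the stop codon (chr3:196051810-196052119, exon 19). The fold enrichment was 5.66, 5.95 and 5.75 in T24 replicates 1, 3 and 4. In T24R2 replicates 1 to 5 it was 3.40, 3.65, 3.09, 6.43 and 4.98. So 4 of 5 T24R2 folds were below those of the T24 libraries that had the peak, and 2 T24 libraries had none. With 0 for missing peaks T24 averaged the 18.6 ± 17.2 percentile and T24R2 the 16.9 ± 16.8 (SD, n = 5 each), and the exact permutation p was 0.937. The iron-responsive elements of TFRC lie further along its 3′UTR, and no summit lay beyond 108 nt past the stop codon.

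ACSL4, which activates arachidonic and adrenic acid, had an exonic summit in T24R2 replicates 1, 3 and 5 only, with fold enrichments of 4.48, 5.61 and 5.31. The peak of replicate 5 lay 14 nt before the end of the stop codon (chrX:109643946-109644053), and those of replicates 1 and 3 lay at the 5′ end. The introns of ACSL4 held 1 summit in T24 and 2 in T24R2. The merged 5′ region (chrX:109733039-109734268) had peaks in 2 T24 and 5 T24R2 libraries. Of its 11 peaks, 2 had the summit in an ACSL4 exon, 8 in an exon of ENSG00000289365, a long noncoding gene transcribed away from ACSL4, and 1 in no exon, so most peaks of this region had their summit in that neighbour. It averaged the 18.3 ± 25.4 percentile of fold for T24 and the 80.2 ± 10.1 for T24R2 (SD, n = 5 each), and every T24R2 library ranked above every T24 library (exact permutation p = 0.00794, the smallest these libraries allow; adjusted p 0.116). By −log10 q the libraries were separated in the same way (exact permutation p = 0.00794, adjusted p 0.0998).

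Counted over the 11 member regions, 1 region, that 5′ region of ACSL4, passed an unadjusted p of 0.05 by rank of fold, and 0 passed by presence. By presence, the ACSL4 5′ region passed without T24 replicate 1 or 3 and the GCLC stop codon region without T24 replicate 1 or 5. Across the series, with all libraries and full lists, 15.2% of regions passed by rank of fold and 9.21% by presence. By rank of −log10 q, 4 of 11 regions passed, all higher in T24R2: the ACSL4 5′ region, the GCLC and SLC7A11 stop codon regions and the SLC3A2 5′ region. Most summits of the ACSL4 5′ region are not in ACSL4 exons, and without it 0 of 10 regions passed by rank of fold and 3 of 10 by rank of −log10 q. Across the series 13.8% of regions passed in that direction, and 70.5% of all regions ranked higher in T24R2 to some extent, as did 9 of the 11 member regions. After adjustment 0 regions of the series passed by presence or by either rank (exact tests, smallest adjusted p by rank of fold 0.116). The smallest p that these exact tests allow, 0.00794, leaves little room to pass over 43676 regions. With all libraries, the SLC7A11 5′ region and the regions called in T24R2 replicate 5 alone had too few peaks to pass even unadjusted.

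Set against those partners that had a peak in the same library, SLC7A11 ranked low by fold. The percentile of fold of the strongest SLC7A11 peak was 8.07, 15.3, 20.6 and 31.4 in T24 replicates 2 to 5 and 6.63, 22.4, 5.17, 1.79 and 1.36 in T24R2 replicates 1 to 5. Its place among the members with a peak was 2 of 3, 4 of 5, 4 of 5 and 4 of 4 in these T24 libraries. In T24R2 it was 4 of 6, 3 of 5, 4 of 6, 5 of 5 and 6 of 6. GCLC or AIFM2 held first place in all 10 libraries. SLC3A2 ranked below SLC7A11 in 6 of the 9 libraries with an SLC7A11 peak. In all 9 of them SLC7A11 was below the median of its partners by fold. By the percentile of −log10 q SLC7A11 was below the median of the same partners in 7 libraries. It was above that median in T24R2 replicate 1 (50.2 against 20.9) and T24R2 replicate 3 (36.1 against 27.5).

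Other genes of the pathway were read from 4 lists. Of their 69 genes, 34 had an exonic peak and 17 had one in all 10 libraries. There were 10 of 21 for glutathione use and cysteine supply (CHAC1, GPX8, TXNRD1 and SLC1A5 in all libraries), 12 of 19 for iron handling, 7 of 20 for lipid substrates and peroxidation and 5 of 9 for other ferroptosis suppressors. One gene passed an unadjusted p of 0.05 in the test of presence. NCOA4, the receptor that delivers ferritin to autophagy, was called in every T24R2 library and in no T24 library (5 against 0, Fisher's exact p = 0.00794, adjusted p 0.190). Its region (chr10:46010396-46010900) had fold enrichments of 2.33 to 3.82, at the 0.920 to 8.31 percentile of the lists. None of these genes passed that test in the other direction, and 11 had a peak in more T24R2 and 4 in more T24 libraries. Over all protein-coding genes with a reference transcript, 51.5% had an exonic peak and 28.1% had one in all 10 libraries. Of those with a peak, 31.1% had it in more T24R2 and 10.6% in more T24 libraries. The share of genes passing with more T24R2 libraries was 6.46% over the series, so 1 of 34 is no more than the background. In the limma fit of regions called in all 10 lists, no region of these genes passed (smallest limma adjusted p = 0.107, BACH1). Fitted on the log2 of −log10 q, a TXNRD1 region was higher in T24R2 (limma adjusted p = 0.00836). In that setting 88 of 9577 regions were called higher in T24R2.

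SETD7, the methylated control transcript, had 2 regions called in all 10 libraries, and GAPDH, the unmethylated one, had no peak. A peak needs methylation as well as expression, so peaks are a weak check of cell type. Of 19 urothelial and epithelial markers 7 had a peak. GATA3 and ELF3 had one in 5 T24 libraries and no T24R2 library (two-sided Fisher's exact p = 0.00794 each, adjusted 0.190). Across all genes with an exonic peak, 2.49% passed an unadjusted p of 0.05 with more T24 libraries. KRT18 was called in 0 T24 and 2 T24R2 libraries, PPARG in 1 and 2, and UPK1A in 1 and 1. KRT7 and FOXA1 had a peak in all 10 libraries. A FOXA1 region differed by 1.07 ± 0.24 (SE) in log2 fold enrichment, higher in T24R2 (limma adjusted p = 0.0324); with a library left out the adjusted p was 0.0310 to 0.110, and it stayed under 0.05 only without T24 replicate 4 or T24R2 replicate 3. Fitted on the log2 of −log10 q, the difference of that FOXA1 region was 0.37 (limma adjusted p = 0.476). Another FOXA1 region, fitted with regions called in at least 4 lists of each line, differed by −0.095 in log2 fold enrichment (limma adjusted p = 0.937). The part of these marker differences in the members' values was not tested. KRT5, KRT8, KRT13, KRT17, KRT19, KRT20, EPCAM, CDH1, UPK1B, UPK2, UPK3A and TP63 had no peak. The endothelial genes PECAM1 and CDH5 had an exonic peak in all 10 libraries, and the monocyte gene CD14 in 5 T24 and 4 T24R2 libraries.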

How the data were processed

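Of 20 samples, the 10 IP libraries (5 T24, 5 T24R2, grouped and numbered by title) were analysed through their peak lists; the 10 inputs were not analysed here on their own. Per the study's methods and the submitters' processing notes, reads were aligned to hg38 with STAR 2.7.0, filtered with SAMtools 1.10 and peaks called per library over input with MACS2 3.0.0a6. The authors' deposited values are a fold enrichment (a ratio), a −log10 q-value, a −log10 p-value (not used) and a score derived from q; the lowest −log10 q was 2.00. The lists hold no counts and no strand, so depth is unknown and genes on opposite strands are not distinguished.

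The annotation was GENCODE 44. All 25 chromosome names matched the reference, and no peak ran past a chromosome end; 1793 peaks lay on other contigs. A summit in an exon of any transcript of a gene gave the gene a peak. A library had a region of the authors' merged list when a peak of that library lay wholly inside the region, and every peak lay inside a region. Positions were taken on MANE Select transcripts. DRACH (18 pentamers of 5 letters) and GGAC were searched on both strands.

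Presence was tested by two-sided Fisher's exact test. Ranks were tested by exact permutation over all 252 assignments of libraries (smallest p 0.00794), and log2 fold enrichment of regions in all 10 lists by limma 3.58.1 in R 4.3.3. Adjustment (Benjamini-Hochberg) ran over all genes or regions of the series. The code was tested on simulated data. The count tests of the study need reads and were not run. Python 3.11.15 and scipy 1.17.1 were used. Members and lists were chosen with earlier results of these data known. The 10 members, the pull-down controls and urothelial markers without a peak were named by rule. So were genes of the 4 wider lists with a presence p or an adjusted limma p under 0.05 (up to 8 per test). A list of blood and endothelial markers is not reported in full here. CHAC1, GPX8, TXNRD1, SLC1A5, BACH1, ENSG00000289365 and the markers with a peak were named after their values were seen. Alternatives were stricter q (5, 10) or fold (4), equal list lengths, MANE exons, a cover of 50%, rank of −log10 q, other scalings, leaving out each library and a replicate block.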

Additional observations from a re-analysis of the deposited data

Results flagged for a closer look

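In 24 groups of 5 libraries, 5 had a library far from the rest by Dixon's gap test at the 95% level, which chance gives in about 1 of 20 groups. T24R2 replicate 5 had 33120 peaks, where the next longest list of the line had 25603. T24 replicate 4 had 0.306 member peaks per 1000 peaks, the next T24 library 0.247. For the SLC3A2 stop codon region, the percentile of fold enrichment was 43.9 in T24 replicate 5 (next 10.4) and 10.5 in T24R2 replicate 5 (next 3.06). For the SLC7A11 stop codon region it was 22.4 in T24R2 replicate 2 (next 6.63).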

How the results depend on the processing

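Over 219 recalculations, 188 gave the same direction and call, or a count within a factor of 1.5. The difference in fold percentile at the SLC7A11 stop codon, −2.62, was 5.00 with −log10 q of at least 5, 5.81 with at least 10, 32.03 by rank of −log10 q, and −6.35 to 2.71 with a library left out, positive without T24 replicate 5; that of the SLC7A11 5′ region was −8.78 to −3.63 with a library left out. The log2 difference of SLC3A2 was 0.23 on the log2 of −log10 q −0.52 with quantile normalization and −0.47 to −0.12 with a library left out. The cause was not tested. Members called in every library, 2 in the full lists, were 1 with −log10 q of at least 5, with fold of at least 4 or with equal list lengths, 0 with −log10 q of at least 10, and 2 to 3 with a library left out. Member regions passing by presence, 0 in the full lists, were 2 with −log10 q of at least 10, 3 with a cover of 50%, and 0 to 2 with a library left out: the ACSL4 5′ region without T24 replicate 1 or 3, and the GCLC stop codon region without T24 replicate 1 or 5. Regions passing by rank of fold, 1 in the full lists, were 2 with −log10 q of at least 10, 4 by rank of −log10 q, and 1 to 2 with a library left out, GCLC passing without T24 replicate 1 or 5. Genes passing by presence were 0 to 1; ACSL4 passed without T24R2 replicate 2 or 4. Regions with more T24 libraries, 1 in the full lists, were 0 with −log10 q of at least 10, 3 with fold of at least 4 and 4 with equal list lengths, where those with more T24R2 libraries were 5. Shares over all genes or regions are not at hand for altered thresholds, covers, list lengths or left-out libraries. These member counts therefore cannot be set against a background.

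The deviations of same-numbered libraries of the lines had low correlations (−0.042 to 0.121). No pairing by number was seen, but these correlations have no reference for unpaired libraries and cannot exclude it. With a replicate block, 0 member regions passed by rank, where the smallest possible p is 0.0625, and the limma calls over all regions were 31 higher in T24R2 and 19 higher in T24, against 46 and 30. Over other settings of that fit the calls ran from 17 to 88 and from 10 to 182; no setting called SLC3A2. The rank of −log10 q was examined without each library, with equal list lengths and with the block after seeing the data.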
